A study of Homo sapiens with 2 samples.

Results

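The genes described here encode 10 enzymes that build, lengthen and desaturate fatty acids: ACLY, ACACA, ACACB, FASN, SCD, ELOVL1, ELOVL5, ELOVL6, FADS1 and FADS2. They were taken by gene symbol from a table of 46427 genes, each symbol matching 1 row. Their mRNA was measured by RNA sequencing in 2 libraries of cells labelled MiaPaca2 (MIA PaCa-2), an established line grown from an adenocarcinoma of the human pancreas. In 1 library the cells had received vehicle, and in the other iMQT_020, which the series describes as an inhibitor of glutamine transport into mitochondria; both exposures lasted 48 hours. The sources used here give neither the dose nor the nature of the vehicle. The question is which mRNA levels differ once cells have been exposed to the compound. Because each treatment had 1 library, no difference has a replicate check, no p-value was computed, and a treatment effect cannot be told apart from other differences between these cultures or preparations.

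Depth was 67095283 estimated counts for vehicle and 59139157 for iMQT_020. Of 7 ductal epithelial markers, 2 were at 10 TPM (a level scaled for transcript length and depth) or more in both libraries, namely KRT8 and KRT18, while KRT7 and KRT19 were listed at 0 in both. CDKN2A and MTAP, whose chromosomal segment is known to be deleted in MIA PaCa-2, were at 278 and 33.7 TPM (vehicle) and at 208 and 26.2 TPM (iMQT_020). Of 3 genes expressed in that line, VIM was at 403 and 438 TPM, ANXA1 at 3.13 and 2.74 TPM, and CD44, normally abundant there, at 0.0964 and 0.0209 TPM. Of these 3 genes only VIM thus reached 10 TPM in both libraries. The expressed CDKN2A and MTAP and the nearly absent CD44 went against the label. Whether the cells were MIA PaCa-2 is thus in doubt and was not tested further. The summed level of the hepatocyte markers was 0.226 and 0.482 TPM, of the adipocyte markers 0.523 and 0.858 TPM, of the leukocyte markers 0.199 and 0.609 TPM, and of the fibroblast markers, through COL1A1 alone, 16.5 and 11.1 TPM.

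Fatty acid synthesis starts from citrate, which leaves the mitochondrion and is split in the cytosol by ATP citrate lyase (ACLY) into acetyl-CoA and oxaloacetate. Acetyl-CoA carboxylase (ACACA, and ACACB at the mitochondrial surface) converts acetyl-CoA to malonyl-CoA, and fatty acid synthase (FASN) joins these units into palmitate. Elongases of the ELOVL family add further carbon units, and desaturases (SCD, FADS1, FADS2) introduce double bonds. In cultured cancer cells glutamine is a known source of the citrate carbon, and many of these genes are known targets of the transcription factor SREBP-1.

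Of the 10 enzymes, 9 had a lower mRNA level in the iMQT_020 library and 1, ACACB, a higher one, and only ELOVL1 changed sides, when centred on GC content and transcript length. The lowest ratios belonged to the desaturases SCD (1.60-fold lower) and FADS1 (1.56-fold lower), followed by ELOVL6 (1.34-fold), ACLY (1.29-fold), FASN (1.23-fold), ELOVL5 (1.18-fold), FADS2 (1.13-fold), ELOVL1 (1.09-fold) and ACACA (1.07-fold). ACACB was 1.32-fold higher. These folds are ratios of CPM, counts scaled for depth with the TMM method, and a lower level per cell cannot be told apart from fewer cells that hold the transcript. Summed over the 10 enzymes, the level was 1268 TPM with vehicle and 977 TPM with iMQT_020, 1.30-fold lower. That sum rests mostly on ACLY and SCD, which held 64.0% of it with vehicle. The median ratio of CPM over the 10 enzymes was 1.21-fold lower.

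None of the 10 was at least 2-fold apart, a size reached downward by 3.09% and upward by 2.15% of the 14805 measured genes (those reaching 50 counts in either library). At least 1.5-fold lower were 2 of the 10, against 10.2% of measured genes, and at least 1.5-fold higher were 0, against 6.3%. A log2 ratio below 0 was found for 9 of the 10 and for 52.7% of measured genes. The median log2 ratio was -0.27 over the 10 enzymes and -0.02 over all measured genes. The exact 95% interval of the ratio, which covers counting error only, lay below 0 for all 9 lower enzymes, as it did for 39.1% of measured genes, so at this depth counting error is small and the interval says nothing about variation between cultures. Well-covered genes spread less: for the 9312 genes that reached 1000 counts in either library, 5.42% were at least 1.5-fold lower and 2.59% at least 1.5-fold higher. Of the 10 enzymes 9 reached that depth, all but FADS2.

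**Figure D1:**
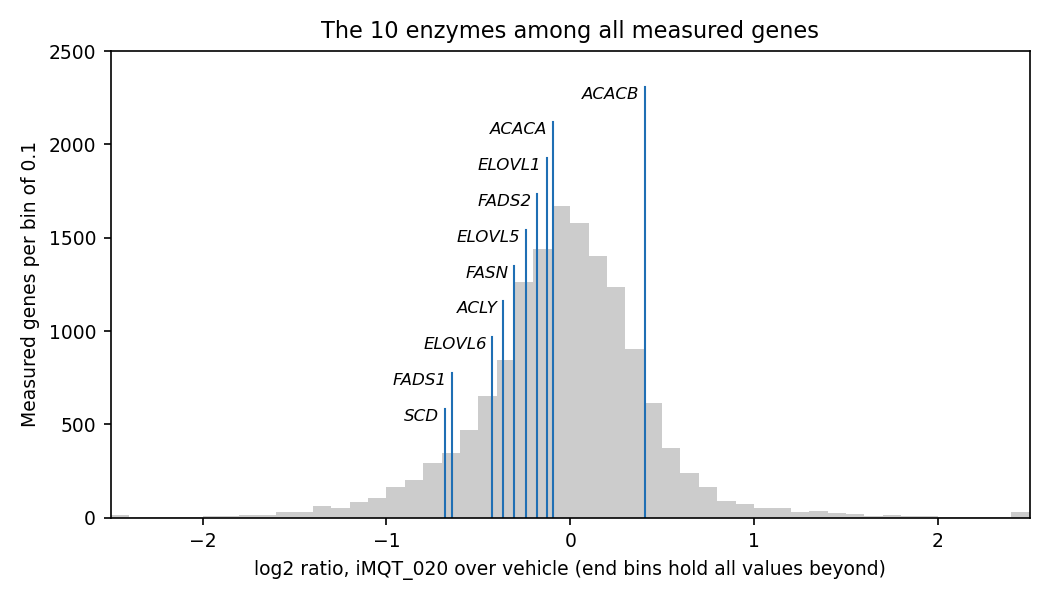
Number of measured genes (vertical axis) by log2 ratio of CPM, iMQT_020 over vehicle (horizontal axis, bins of 0.1), with a blue line at the ratio of each of the 10 enzymes; the heights of the lines carry no value. The 9 lower enzymes lie between -0.68 and -0.10 and ACACB at 0.41, all within the body of the distribution.

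The levels, compared per transcript length in TPM, spanned a wide range, and their order was nearly the same in both libraries. ACLY was the most abundant of the 10 (412 TPM with vehicle and 330 TPM with iMQT_020), then SCD (399 and 257 TPM), ELOVL5 (147 and 123 TPM), FASN (138 and 116 TPM) and ELOVL1 (71.1 and 68.1 TPM). In the vehicle library FADS1 (35.6 TPM) came next, before ACACA (27.7 TPM), while in the iMQT_020 library ACACA (26.5 TPM) stood above FADS1 (23.6 TPM). ELOVL6 (23.3 and 18.1 TPM), FADS2 (9.35 and 8.53 TPM) and ACACB (4.34 and 5.95 TPM) closed the order in both. No neighbours in either order had overlapping counting intervals, but without replicates their spread between cultures is unknown. ACLY and SCD together made up 64.0% of the summed TPM of the 10 enzymes with vehicle and 60.1% with iMQT_020, and SCD alone went from 31.5% to 26.3%.

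**Figure D2:**
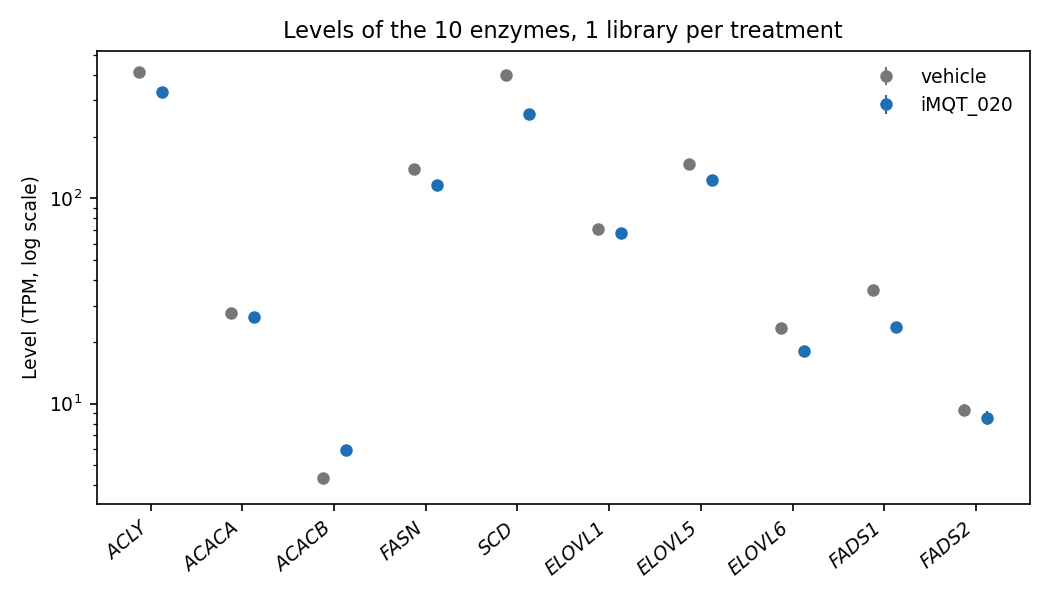
Level of each enzyme in TPM (log scale) in the vehicle library (grey) and the iMQT_020 library (blue), 1 point per library, with bars for the 95% Poisson interval of the count, most of them smaller than the points. The order from ACLY at the top to ACACB at the bottom differs between the libraries only in FADS1 and ACACA, and only ACACB is higher with iMQT_020.

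The first step is carried out by ACLY, on chromosome 17 (41866917 to 41930545, minus strand, GRCh38). ACLY had 52898 counts with vehicle and 36350 with iMQT_020. The iMQT_020 library was the lower one, with a log2 ratio of -0.36 (-0.38 to -0.35), and 19.3% of measured genes had a lower ratio. Of the exonic bases of its canonical transcript, 3.63% are shared with a long non-coding RNA on the opposite strand. The sources used here do not say whether counting used strand, and without strand the reads of such a pair cannot be separated.

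The carboxylases that make malonyl-CoA went different ways. ACACA, the cytosolic form that feeds synthesis (chromosome 17, 37084992 to 37406836, minus strand), had 7971 and 6602 counts and a log2 ratio of -0.10 (-0.14 to -0.05). ACACB, whose product at the mitochondrial surface restrains the entry of fatty acids for oxidation (chromosome 12, 109111189 to 109268226, plus strand), had 1120 and 1313 counts and a log2 ratio of 0.41 (0.29 to 0.52). ACACB was thus higher and ACACA slightly lower with iMQT_020, and 12.4% of measured genes had a higher ratio than ACACB. The difference between the log2 ratios of ACACB and ACACA was 0.50 (0.38 to 0.63), a value that does not depend on how the libraries are scaled. ACACA remained the more abundant form, at 6.39 times the TPM of ACACB with vehicle and 4.46 times with iMQT_020. No exonic base of either gene is shared with another annotated gene.

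FASN, which assembles palmitate (chromosome 17, 82078338 to 82098236, minus strand), had 34910 and 25018 counts. Its log2 ratio was -0.30 (-0.33 to -0.28), and 22.9% of measured genes had a lower one. Relative to ACACA, the step before it, FASN was lower by -0.21 on the log2 scale (-0.26 to -0.16), and ACLY relative to FASN by -0.06 (-0.09 to -0.03). By these counts FASN stood nearer to ACLY than to ACACA, but centred on GC content and length the order turned: FASN relative to ACACA was then 0.11, and ACLY relative to FASN -0.28.

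Promoter sequence from RefSeq (GRCh38.p14) was available for 9 of the 10 genes, in 14 windows of 250 bases before to 50 after a start site; FASN was not among them. The upstream bases of 3 of these windows are shown 5′ to 3′, so that the promoters of genes with different ratios can be compared. These windows belong to the most abundant enzyme (ACLY), the enzyme with the lowest ratio (SCD) and the only enzyme higher with iMQT_020 than with vehicle (ACACB). Capitals mark the CCAAT box (CCAAT) and the GC box (GGGCGG), each on either strand.
ACLY, chr17:41919023-41919272, minus strand: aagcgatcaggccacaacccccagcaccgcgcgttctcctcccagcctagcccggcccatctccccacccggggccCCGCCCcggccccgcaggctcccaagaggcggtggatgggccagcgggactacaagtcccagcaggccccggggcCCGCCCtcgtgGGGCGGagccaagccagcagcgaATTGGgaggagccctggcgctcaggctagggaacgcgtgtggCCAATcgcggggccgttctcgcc
SCD, chr10:100346983-100347232, plus strand: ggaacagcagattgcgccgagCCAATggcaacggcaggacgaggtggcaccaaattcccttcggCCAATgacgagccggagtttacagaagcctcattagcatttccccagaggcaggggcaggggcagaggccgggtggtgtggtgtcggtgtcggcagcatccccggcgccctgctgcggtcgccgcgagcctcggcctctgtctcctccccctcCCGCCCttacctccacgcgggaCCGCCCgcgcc
ACACB, chr12:109154429-109154678, plus strand: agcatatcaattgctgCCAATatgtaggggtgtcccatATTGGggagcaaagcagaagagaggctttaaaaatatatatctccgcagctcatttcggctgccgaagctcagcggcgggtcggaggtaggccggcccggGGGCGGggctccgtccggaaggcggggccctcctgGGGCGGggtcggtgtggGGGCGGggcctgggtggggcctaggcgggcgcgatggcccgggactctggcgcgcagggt
The boxes in these stretches do not overlap each other. With positions given for the leftmost base of the match and counted back from the start site, SCD has CCAAT boxes at -229 and -186 and GC boxes at -33 and -11, and ACACB has CCAAT boxes at -234 and -212 and GC boxes at -112, -77 and -60. ACACB has a further annotated start site upstream, whose window held none of the motifs searched. A CCAAT box was found in 9 of the 14 windows (7 of 9 genes) and in 34.6% of all 35116 RefSeq windows. A GC box was in 10 of the 14 (8 of 9 genes) and in 45.0% of all. The windows of ACLY overlap each other, as do those of FADS2, so the same box can be counted in more than 1 window. The percentages of all are shares of windows, not of genes. An E-box (CACGTG) was found in 1 of the 14, that of ELOVL5, and in 7.26% of all. The sterol element searched (TCACNCCAC, either strand) was in 0 of the 14 and in 1.13% of all, which says only that these letters are not in these windows. Both the lower SCD and ACLY and the higher ACACB carried CCAAT and GC boxes.

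The elongases were all lower, to different degrees, except that ELOVL1 was above 0 when centred on GC content and length. ELOVL6, which extends palmitate toward stearate (chromosome 4, 110045846 to 110199202, minus strand), had 4548 and 3002 counts and a log2 ratio of -0.42 (-0.49 to -0.36). ELOVL5, which acts on polyunsaturated chains (chromosome 6, 53267404 to 53348950, minus strand), had 11591 and 8667 counts and a ratio of -0.24 (-0.28 to -0.20). ELOVL1, which makes very long saturated and monounsaturated chains (chromosome 1, 43363401 to 43368011, minus strand), had 3108 and 2516 counts and a ratio of -0.13 (-0.20 to -0.05). The elongase of palmitate was the lowest of the 3 relative to vehicle. The log2 ratio of ELOVL6 was -0.18 (-0.26 to -0.10) relative to ELOVL5 and -0.29 (-0.40 to -0.19) relative to ELOVL1. ELOVL5 against ELOVL1 gave -0.11 (-0.20 to -0.03). Centred on GC content and length, the differences from ELOVL1 were larger, -0.63 for ELOVL6 and -0.38 for ELOVL5. ELOVL5 was also the enzyme for which the transcript length implied by counts and FPKM (fragments scaled by transcript length and depth) moved most, to 1.05 times its vehicle value, against 1.003 for the median measured gene and 0.991 to 1.05 over the 10 enzymes. Its FPKM quotient was accordingly -0.30 on the log2 scale.

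SCD, the desaturase that turns stearate into oleate (chromosome 10, 100347233 to 100364826, plus strand), had the lowest ratio of the 10. Its counts were 62341 with vehicle, the most of any of the 10 enzymes, and 34395 with iMQT_020. On the log2 scale its ratio was -0.68 (-0.70 to -0.66), or 1.60-fold lower (1.58 to 1.63), and 7.96% of all measured genes and 3.68% of those reaching 1000 counts had a lower one. SCD is the only one of the 10 whose RefSeq span overlaps no other gene. The difference from FASN was -0.38 (-0.41 to -0.35; -0.69 when centred on GC content and length), and within the libraries SCD stood at 2.88 times the TPM of FASN with vehicle and 2.22 times with iMQT_020. SCD5, the other human stearoyl-CoA desaturase and named after its values had been looked at, had 2193 and 1340 counts and a log2 ratio of -0.53 (-0.63 to -0.44), so both desaturases of this kind were lower. Centred on GC content and length, SCD5 was at -0.52. SCD was 16.3 times as abundant as SCD5 in TPM with vehicle and 14.7 times with iMQT_020.

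FADS1 and FADS2 introduce double bonds into polyunsaturated fatty acids, FADS2 at the first step and FADS1 after an elongation. They lie head to head on chromosome 11, FADS1 from 61799627 to 61817003 on the minus strand and FADS2 from 61816203 to 61867354 on the plus strand, so that 801 bases of the spans overlap. FADS1 had 4629 and 2628 counts and a log2 ratio of -0.64 (-0.71 to -0.57), with 8.86% of measured genes lower. FADS2 had 852 and 666 counts and a ratio of -0.18 (-0.33 to -0.03). The neighbours thus differed: FADS1 relative to FADS2 was -0.46 (-0.63 to -0.30), or -0.68 when centred on GC content and length. Their TPM stood at 3.80 to 1 with vehicle and 2.76 to 1 with iMQT_020. Exons of FADS1 and FADS2 share 490 bases on opposite strands, which cover 142 bases of the canonical FADS1 transcript and 148 of FADS2. FADS2 also shares 49 exonic bases with FEN1 on the same strand, 0 of them in its canonical transcript. FEN1 had 17791 and 12746 counts and a log2 ratio of -0.30 (-0.34 to -0.27). The part of these shared bases in the ratios was not tested. FADS3, the third gene of the cluster (61873526 to 61892224), had 795 and 441 counts and a log2 ratio of -0.67 (-0.85 to -0.50). FADS1 and FADS3 had ratios that differed by 0.03 (-0.15 to 0.22), an interval that includes 0, but centred on GC content and length FADS1 was at -0.68 and FADS3 at -0.38, a difference of -0.31. FADS2 was above FADS3 by 0.49 (0.27 to 0.72). Between SCD and FADS1 the difference was -0.04 (-0.11 to 0.03), again an interval that includes 0, and -0.13 when centred. Intervals were computed for 14 such pairs in all and are not adjusted for their number.

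**Figure D3:**
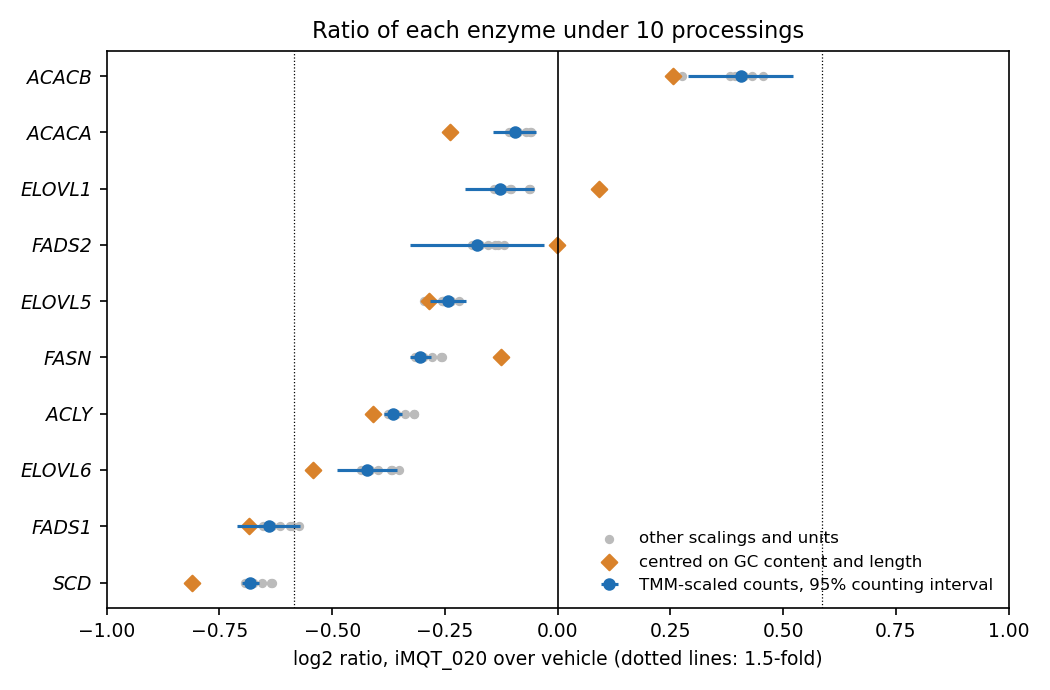
Log2 ratio of each enzyme, iMQT_020 over vehicle, from TMM-scaled counts (blue, with the 95% counting interval), from 8 other scalings, prior counts and units (grey) and after centring on GC content and transcript length (orange). SCD and FADS1 lie at or near the dotted line for 1.5-fold lower or beyond it throughout, ACACB stays above 0, and ELOVL1 crosses 0 only when centred.

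The deposited units gave the same order of magnitude. In quotients of deposited TPM, 9 of the 10 enzymes were below 0, against 47.7% of genes at 1 TPM or more, and their median log2 value was -0.26. In quotients of deposited FPKM, 9 of the 10 were below 0, against 53.0% of genes at 1 FPKM or more, with a median of -0.30. SCD was 1.55-fold lower in TPM and 1.60-fold lower in FPKM, FADS1 1.51-fold and 1.56-fold, and ACACB 1.37-fold and 1.33-fold higher. By either quotient SCD and FADS1 were the only ones of the 10 at least 1.5-fold apart, a size reached downward by 9.87% of genes in TPM and 9.62% in FPKM.

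The ratio of all genes varied with GC content and transcript length, and the 10 enzymes differ in both. FASN, with 65.3% GC in the canonical transcript, falls in the highest of 10 bins of GC content, whose median log2 ratio was -0.31, close to the -0.30 of FASN. SCD has 46.5% GC and FADS1 49.3%, and the medians of their bins were 0.01 and -0.04. Measured against genes in the same joint bin of GC content and length, SCD was at -0.81, FADS1 at -0.68, ELOVL6 at -0.54, ACLY at -0.41, ELOVL5 at -0.28, ACACA at -0.24 and FASN at -0.13. FADS2 was then at -0.00, ELOVL1 at 0.09 and ACACB at 0.26. By these centred values SCD and FADS1 were at least 1.5-fold lower, as were 7.23% of all genes centred. The centred median of the 10 was -0.26, with 8 below 0 against 49.8% of the 13756 genes that could be centred. SCD and FADS1 thus kept the lowest values, while the lower FADS2 and ELOVL1 were at or above genes of like composition. The part of GC content and length in these ratios was not tested.

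**Figure D4:**
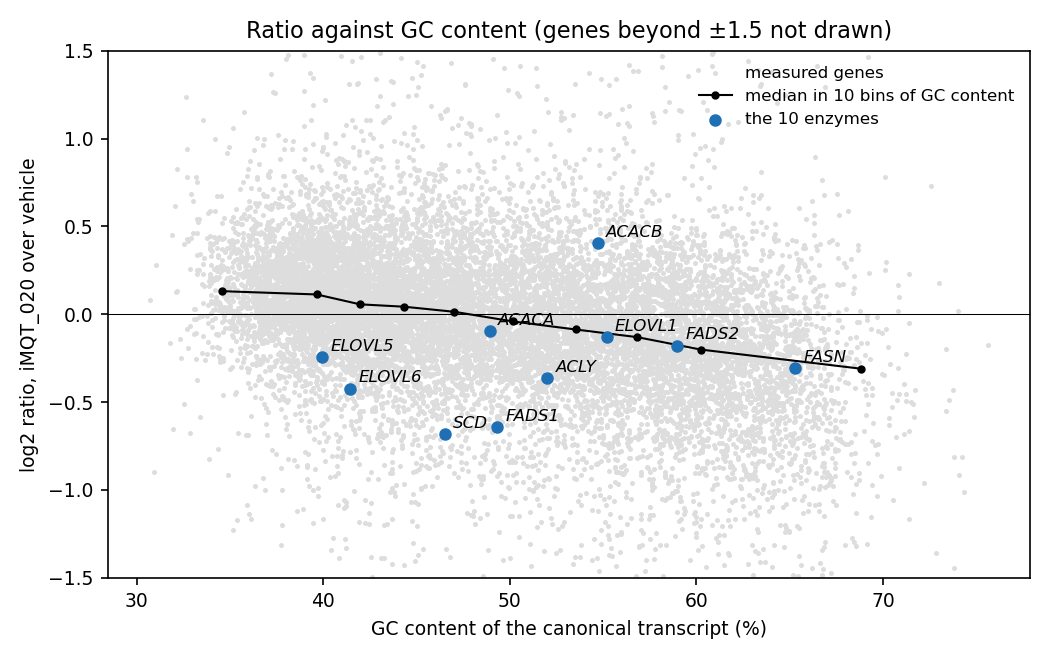
Log2 ratio of CPM, iMQT_020 over vehicle (vertical axis), against the GC content of the canonical transcript in percent (horizontal axis) for measured genes (light grey), with the median of each of 10 GC bins (black) and the 10 enzymes (blue). FASN, FADS2, ELOVL1 and ACACA lie on or near the black line, SCD, FADS1, ELOVL6, ELOVL5 and ACLY well below it, and ACACB above it.

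Around the 10 enzymes, 8 further lists of the pathway held 75 genes, of which 70 were measured. Of these, 49 had a log2 ratio below 0, against 52.7% of all measured genes, and 21 above, and the median was -0.14. In this set 2 were at least 2-fold lower, against 3.09% of all measured genes, and 0 at least 2-fold higher, against 2.15%. At least 1.5-fold lower were 10 of the 70, against 10.2% of all measured genes, and at least 1.5-fold higher 0, against 6.3%. Centred on GC content and length, 4 of the 70 (CYB5A, ACSL6, INSIG1 and MLXIPL) were at least 1.5-fold lower, against 7.23% of all genes centred. SLC25A1, HSD17B8, FADS3, SLC27A2, SREBF1 and AGPAT2 were then within 1.5-fold, and 1 gene, NR1H3, was at least 1.5-fold higher. For the counts below 0 given for each list, the share over all genes is 52.7% of measured genes, or 49.8% of genes centred.

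The supply of citrate, acetyl-CoA and NADPH was represented by 10 genes, 8 of them below 0, with a median of -0.24. SLC25A1, the carrier that exports citrate from mitochondria to the cytosol where ACLY acts, had 8023 and 3880 counts and a log2 ratio of -0.87 (-0.93 to -0.82). Its ratio was thus lower than that of any of the 10 enzymes. Centred on GC content and length its value was -0.45, above SCD at -0.81, FADS1 at -0.68 and ELOVL6 at -0.54. IDH2, the mitochondrial NADP-dependent isocitrate dehydrogenase, was at -0.45 (-0.51 to -0.39), and at -0.28 when centred. Genes that control acetyl-CoA carboxylase, mainly subunits of AMP-activated protein kinase, had a median of 0.02 over 9 measured genes, 3 of them below 0. Within this list MID1IP1, which promotes polymerisation of the carboxylase, was at -0.37 (-0.44 to -0.30) and PRKAA1, a catalytic subunit of the kinase, at 0.26 (0.19 to 0.32); centred, they were at -0.21 and 0.06, and the list's median was 0.06. THRSP was listed at 0 in both libraries.

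Among the genes of mitochondrial fatty acid synthesis, a separate pathway that makes the lipoic acid precursor, 5 of 7 were below 0 with a median of -0.18. HSD17B8, a subunit of its ketoacyl reductase, had 344 and 173 counts and a ratio of -0.81 (-1.09 to -0.55), and ACSF3, the mitochondrial malonyl-CoA synthetase, was at -0.35 (-0.45 to -0.25). Centred, HSD17B8 was at -0.53, ACSF3 at -0.25 and the list's median at -0.06. The other elongation enzymes had 6 of 8 measured genes below 0 and a median of -0.18. HACD1, a dehydratase of the elongation cycle, was at -0.44 (-0.67 to -0.21) and HSD17B12, its ketoacyl reductase, at -0.40 (-0.46 to -0.35). Centred, HACD1 was at -0.48, HSD17B12 at -0.44 and the median of this list at -0.18. ELOVL3 had 0 and 17 counts, under the minimum, and HACD4 was listed at 0 in both libraries.

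The other desaturation enzymes and electron carriers had a median of -0.53, the lowest of the 8 lists before centring, over 5 measured genes, 4 of them below 0. Besides FADS3 and SCD5, these included CYB5A, a cytochrome b5 that passes electrons to the desaturases, with 2292 and 1336 counts and a ratio of -0.60 (-0.70 to -0.50). FADS3 and CYB5A were at least 1.5-fold lower. Centred on GC content and length, CYB5A was at -0.67 and FADS3 at -0.38, within 1.5-fold, and the median of the list was -0.38, just above that of the acyl-CoA synthetases. CYB5R3, the reductase that supplies cytochrome b5, was at 0.06 (0.01 to 0.11) and was named after its value had been looked at. The acyl-CoA synthetases, which activate fatty acids for use, were below 0 in 6 of 6 measured cases, against 52.7% of measured genes. Their median was -0.21. Centred, 5 of 6 were below 0, all but SLC27A4 at 0.25, against 49.8% of all genes centred, and the median was -0.39. ACSL6 had 1309 and 662 counts and a ratio of -0.81 (-0.94 to -0.67), and SLC27A2, a fatty acid transport protein with synthetase activity, had 170 and 97 counts and a ratio of -0.63 (-1.01 to -0.27). Centred, ACSL6 was at -1.02, at least 2-fold lower, and SLC27A2 at -0.54.

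The transcription regulators of lipid synthesis held both genes of the 8 lists that were at least 2-fold lower, a size reached by 3.09% of all measured genes. INSIG1, which retains the SREBP escort protein in the endoplasmic reticulum and is itself a sterol-responsive gene, had 10561 and 3798 counts and a log2 ratio of -1.30 (-1.35 to -1.25). Centred on GC content and length, INSIG1 was at -1.37, still at least 2-fold lower. MLXIPL, which encodes the carbohydrate-responsive factor ChREBP, had 1109 and 458 counts and a ratio of -1.10 (-1.26 to -0.94); centred on GC content and length it was at -0.80, within 2-fold. SREBF1, which encodes SREBP-1 and was named after its value had been looked at, had 3766 and 2075 counts and a ratio of -0.68 (-0.76 to -0.61), or -0.44 when centred, and SREBF2 was at -0.08 (-0.13 to -0.03). The list as a whole had 8 of 11 genes below 0 and a median of -0.08, or -0.15 when centred. In glycerolipid assembly and storage, where the finished acyl chains are built into phospholipid and triglyceride, 9 of 14 genes were below 0 and the median was -0.12. AGPAT2, an acyltransferase that makes phosphatidic acid, was at -0.61 (-0.68 to -0.54) and DGAT1, which makes triglyceride, at -0.48 (-0.59 to -0.38); centred, they were at -0.19 and -0.22, and the list's median was -0.08.

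**Figure D5:**
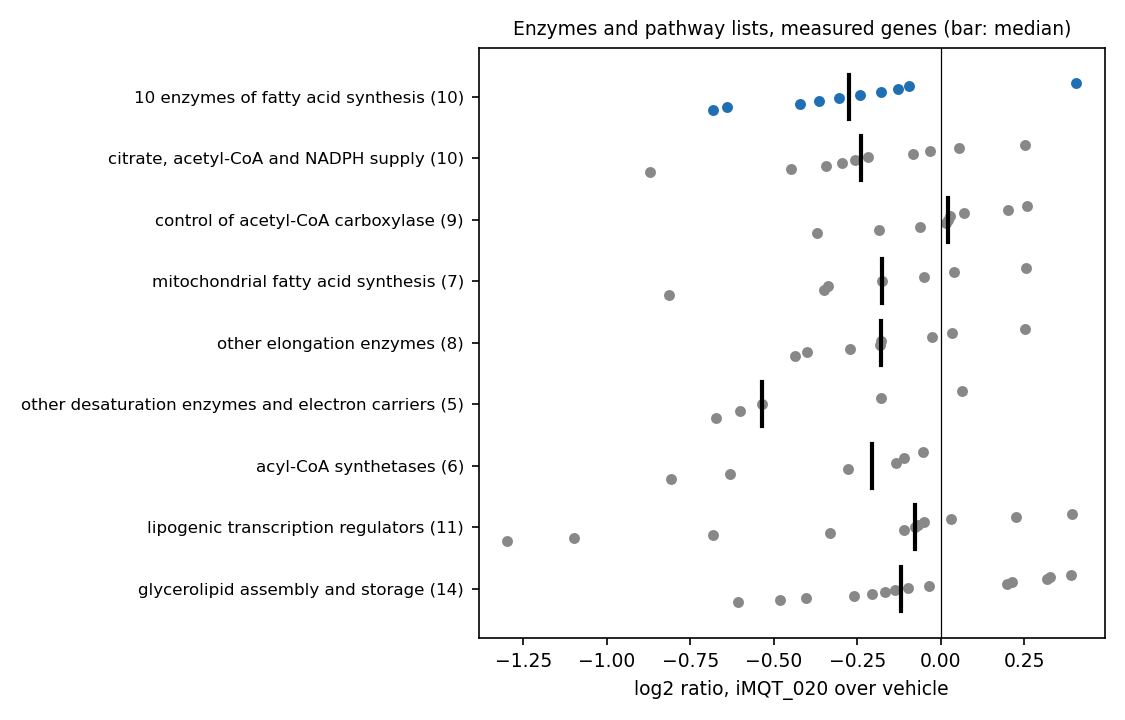
Log2 ratio of CPM, iMQT_020 over vehicle, of each measured gene (points) in the 10 enzymes (blue) and the 8 other lists of the pathway (grey), with the number of measured genes in brackets and a black bar at the median. These medians, not centred, run from -0.53 for the other desaturation enzymes and electron carriers to 0.02 for the control of acetyl-CoA carboxylase, and that of the 10 enzymes is -0.27.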

How the data were processed

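RNA sequencing of 2 libraries was used, 1 per treatment. Per the labels' protocols, total RNA came from a TRIzol extraction, and HISAT2 with Bowtie2 served to align reads to GRCh38. The submitters' processing notes also name StringTie and edgeR, giving neither versions nor roles. The authors deposited estimated counts as whole numbers for 46427 genes, beside FPKM scaled by the authors for transcript length and depth, and TPM, which the authors brought to 1 common total. The second deposited table holds FPKM of fewer genes, equal to those of the first. Columns were assigned by name, and 0 were left unassigned.

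Counts were scaled by TMM in edgeR 4.0.16 (R 4.3.3), with factors of 0.998 and 1.002, and log2 ratios used a prior count of 0.5. A gene counted as measured from 50 counts in either library. Intervals of a ratio are exact Clopper-Pearson 95% intervals, those of a difference between genes are conditional exact, and both cover counting error only, treating estimates as whole reads. If mates of a fragment were counted separately, which the sources used here do not say, all counting intervals are too narrow. With 1 library per group, genes were described by 2-fold and 1.5-fold rules. GC content and length came from canonical transcripts of GENCODE 44, in 10 bins each, and centring subtracted the bin median. Gene spans and promoters came from RefSeq (GRCh38.p14), and exon overlaps from GENCODE 44. The calculation was tested on counts simulated with Poisson error only, a setting that holds no variation between cultures. Python 3.11.15, numpy 2.4.6, pandas 2.3.3 and scipy 1.17.1 were used. The members and lists were chosen with earlier results of these data known. All 10 enzymes are named, with the 2 measured genes of largest absolute ratio in each other list and any at least 2-fold apart. With 2 libraries no likeness of pattern between genes was computed. The alternatives were DESeq2 1.42.0 size factors, other totals, other minimum counts and prior counts, FPKM, TPM, centring, and other call rules.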

Additional observations from a re-analysis of the deposited data

How the results depend on the processing

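No paired analysis was possible because each group has 1 library; for the same reason no library could be left out. Over the 9 alternatives that recomputed every enzyme, the median log2 ratio of the 10 ran from -0.30 (FPKM) to -0.25 (totals without mitochondrial and rRNA genes), and ACACB was above 0 in all 9. The other enzymes were below 0 in all 9, except ELOVL1, which was above 0 when centred on GC content and length. No scaling moved the median of all genes by more than 0.05. With log2(TPM + 1), 1 enzyme (SCD) was at least 1.5-fold lower in place of 2, since FADS1 was then at -0.57. Only SCD overlaps no other gene, so the median over such genes is its value, -0.68.

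Counts of genes at least 2-fold apart over the whole table depended on the rule. They were 318 higher and 457 lower of 14805 genes, against 48 and 118 of 13002 with log2(FPKM + 1) and 140 and 223 of 14976 with log2(TPM + 1). The sets of genes thus differ, and the added 1 also draws low genes toward 0. The calls were 1236 and 1008 of 18626 genes with a minimum of 10 counts, and 89 and 244 of 12506 with 200. With 1000 (chosen after the data were seen) they were 30 and 89 of 9312, and with none 3503 and 2756 of 24790. A 1.5-fold rule gave 933 and 1514, and requiring the counting interval to exclude 2-fold gave 136 and 181. Among 12843 protein-coding genes they were 201 and 330, and among the 13756 genes centred 236 and 297. Estimated counts, 1 library per treatment and unknown strand limit every value here.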
